A study of Homo sapiens with 4 samples.

Results

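The genes described here are the members of 15 families of developmental transcription factors: HOX, SOX, FOX, PAX, sine oculis homeobox, LHX, IRX, TBX, GATA, DLX, MEIS, PBX, LMX1, MSX and POU. They were chosen by gene symbol alone, as symbols made of a family name followed by a member number, and the symbol rule uses no measured value, although the families were chosen with earlier results of these data known. The count tables list 162 such genes among 14911 gene names, and 85 of the 162 averaged 50 counts or more across the 4 libraries, as did 5320 genes in all. Values were compared only for these 85. Gencode v44 annotates 189 coding genes whose symbols match, so 27 had no row.

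The libraries came from HEK293T, a line derived from human embryonic kidney and expressing SV40 large T, infected with lentivirus for a control shRNA (shCTL) or an shRNA against the m6A demethylase ALKBH5 (shA5). Both populations were exposed to X-rays, at 10 Gy by the study's methods, so no unirradiated sample is part of the comparison. In m6A-seq, poly(A) RNA is fragmented and sequenced before (input) and after (m6A-IP) a pull-down with an antibody against N6-methyladenosine. There was 1 library per group: the inputs held 2237819 (shCTL) and 1311390 counts (shA5), and the m6A-IPs 3944402 and 3148119. The harvest time and which of the study's ALKBH5 shRNAs these libraries carry are not given in the sources used here.

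A single library per group leaves the comparison of shCTL with shA5 without replicates, and no p-value was computed. Each interval below is an exact 95% counting interval of a plain ratio of counts. It covers the counting error of these libraries only, and reads copied by PCR are not independent molecules. ALKBH5 itself went from 217 CPM (counts scaled to the same library total) in the input of shCTL to 111 in that of shA5, or -0.97 on the log2 scale (interval -1.25 to -0.70).

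HOX proteins are homeodomain factors that give cells their position along the body axis, and PBX and MEIS proteins are the homeodomain partners with which they bind DNA. SOX proteins carry an HMG box, FOX proteins a forkhead domain, GATA proteins zinc fingers, TBX proteins a T-box and POU proteins a POU domain, and the PAX, sine oculis homeobox, LHX, IRX, DLX, LMX1 and MSX families are further classes of homeobox or paired-box factors. Many of these genes are short, have few introns and produce short-lived mRNAs. m6A is deposited largely in the consensus GGACT and its variants, in long internal exons, near stop codons and in mRNAs with few introns, while exon junctions keep the methyltransferase away from nearby sequence. ALKBH5 removes the mark.

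Of all counts, the 162 genes took 1.26% before and 2.26% after the pull-down in shCTL. For shA5 their shares were 1.07% and 2.08%. The share was thus larger in the m6A-IP than in the input of each cell population. Summed over all 162, the log2 ratio of m6A-IP to input CPM, called m6A enrichment below, was 0.84 in shCTL (interval 0.82 to 0.86) and 0.96 in shA5 (0.94 to 0.99).

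Gene by gene, enrichment was taken as the log2 ratio of CPM with a pseudocount of 0.5 CPM. Its median over the 85 members was 0.66 in shCTL and 0.77 in shA5, against -0.11 and -0.10 over all 5320 genes. The filter averages the m6A-IP counts with those of the input, so it favours genes high in the m6A-IP. Enrichment was above 0 in 76 of the 85 members in shCTL and in 77 in shA5. Among the 35 members averaging 10 to 50 counts, it was above 0 in 17 and 22. In shCTL, 45 of the 85 (52.9%) were enriched at least 1.5-fold, where 22.5% of all genes were. In shA5, 54 of the 85 (63.5%) were, where the share of all genes was 24.3%. Depletion of at least 1.5-fold was seen in 4 of 85 members in shCTL (4.71%, beside 30.3% of all genes) and in 4 in shA5 (beside 31.7%). GATA2, FOXN3 and HOXB3 were depleted in both, and PBX4 in shCTL. Of the 58 members enriched in either population, 41 were enriched in both, 4 passed 1.5-fold in shCTL alone and 13 in shA5 alone, or 48.2%, 4.71% and 15.3% of the 85, beside 18.7%, 3.78% and 5.58% of all genes. Counting intervals lay above 0 for 63 members in shCTL and for 64 in shA5, and below 0 for 5 in each. Over all genes 33.7% of intervals in shCTL and 32.6% in shA5 lay above 0, and 42.3% and 39.1% below.

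**Figure D1:**
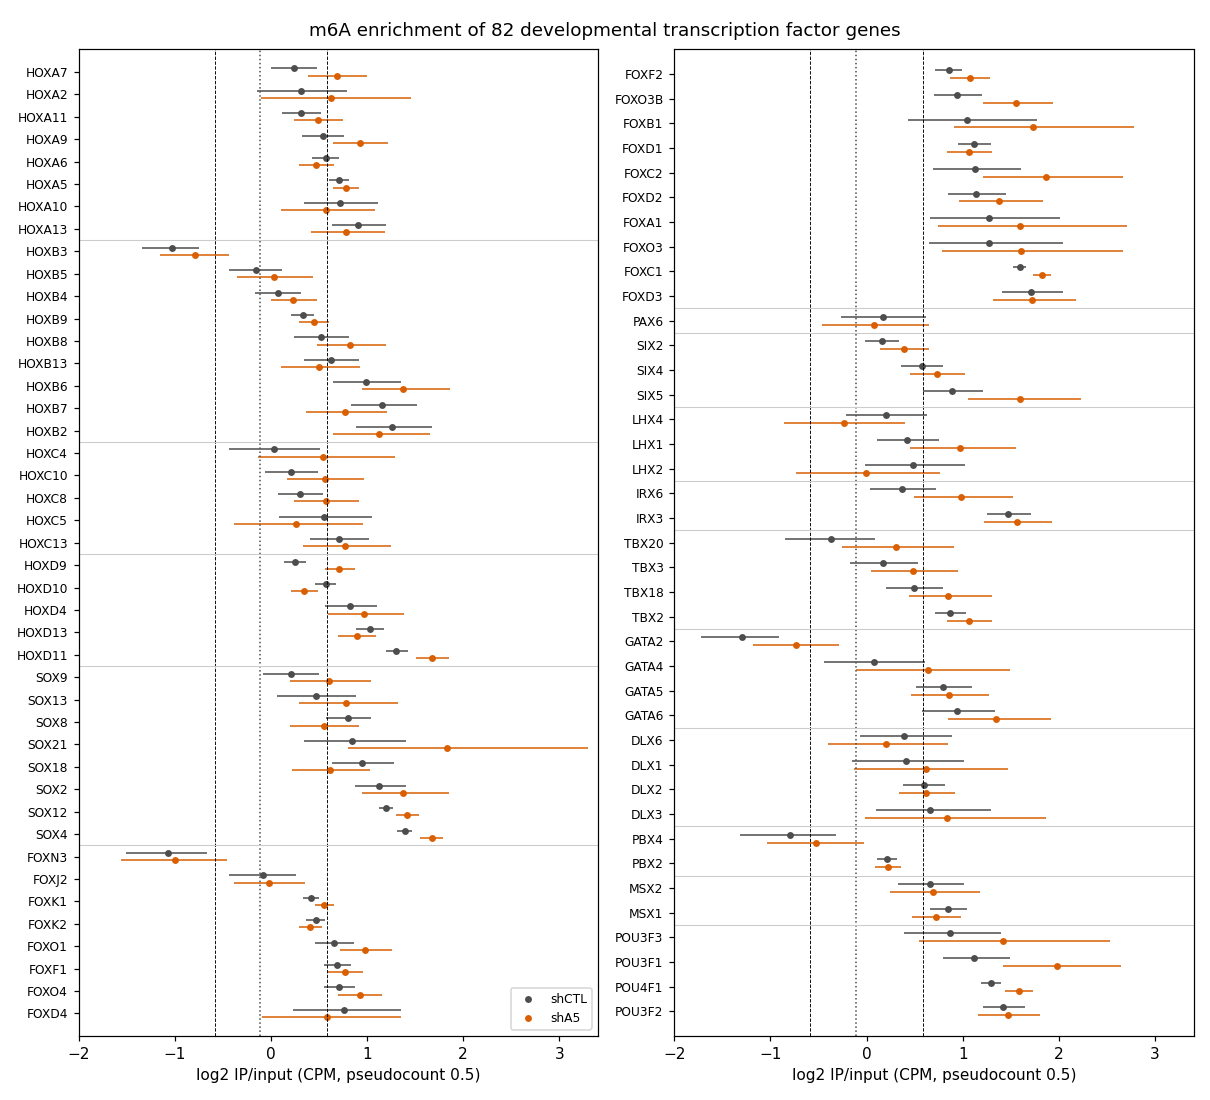
Log2 ratio of m6A-IP to input CPM for 82 of the 85 members, grouped by family, in shCTL (grey) and shA5 (orange). Points carry the pseudocount, bars are 95% counting intervals of the plain ratios with 1 library per group, dashed lines mark 1.5-fold and the dotted line the median of all genes in shCTL, -0.11. Most points lie right of the dotted line, and GATA2, FOXN3, HOXB3 and PBX4 lie left of the lower dashed line in shCTL.

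The highest enrichment in shCTL was that of FOXD3, a forkhead factor of the neural crest, followed by FOXC1, IRX3, POU3F2 and SOX4. The lowest was that of GATA2, a zinc finger factor known from blood progenitors, followed by FOXN3, HOXB3 and PBX4. All 9 mRNAs hold GGACT, as do most mRNAs. For each, the copy nearest the last coding base of the transcript with the most counts is printed below with 8 bases on either side, 5′ to 3′ on the mRNA strand and in DNA letters, as an example of the motif in the genes at both ends of the range. Capitals mark GGACT, and positions are hg38 with Gencode v44.
FOXD3, chr1:63324599-63324619, plus strand, 3′ UTR in exon 1 of 1: ccaatcctGGACTctgcctct
FOXC1, chr6:1612573-1612593, plus strand, 3′ UTR in exon 1 of 1: ttattcatGGACTtgttttaa
IRX3, chr16:54284560-54284580, minus strand, coding sequence in exon 2 of 4: acctgctgGGACTtcccggag
POU3F2, chr6:98836115-98836135, plus strand, coding sequence in exon 1 of 1: tcccggagGGACTctgccggg
SOX4, chr6:21595867-21595887, plus strand, coding sequence in exon 1 of 1: gagttcccGGACTactgcacg
PBX4, chr19:19563549-19563569, minus strand, coding sequence in exon 7 of 8: caccctgcGGACTctggcctc
HOXB3, chr17:48550466-48550486, minus strand, coding sequence in exon 2 of 2: gggaacctGGACTacaacggg
FOXN3, chr14:89162931-89162951, minus strand, coding sequence in exon 7 of 7: ccggatgcGGACTgagagtga
GATA2, chr3:128480648-128480668, minus strand, 3′ UTR in exon 6 of 6: tctaacaaGGACTtggagact
The centres of these copies lie 77 (POU3F2) to 524 bases (FOXN3) from the last coding base. The 5 high genes hold 2, 5, 2, 4 and 8 copies in the order printed, and the 4 low genes 2, 4, 11 and 3. A match is a description of the letters and does not say that the site was methylated in these cells, since the counts are per transcript.

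Gene counts below come in a fixed order, the input and then the m6A-IP of shCTL, followed by the same pair of shA5. FOXD3 had 97, 563, 52 and 415 counts, an enrichment of 1.71 in shCTL (interval 1.41 to 2.05) and 1.72 in shA5 (1.31 to 2.18), which placed it 28th of the 5320 genes in shCTL. FOXC1 (chr6:1609915-1613897), which acts in eye, heart and kidney development, was the most abundant of all members, with 2383, 12654, 1080 and 9185 counts. Its enrichment was 1.59 in shCTL (1.53 to 1.65) and 1.82 in shA5 (1.73 to 1.92). IRX3, an Iroquois factor of neural tube and kidney patterning, had 190, 934, 79 and 562 counts and an enrichment of 1.47 (1.25 to 1.71) and 1.56 (1.23 to 1.93). POU3F2 is a neural POU factor, and its counts of 203, 962, 91 and 607 gave 1.42 (1.21 to 1.65) and 1.47 (1.15 to 1.81). SOX4, a SOXC factor of progenitor cells, had 1774, 8197, 659 and 5041 counts and an enrichment of 1.39 (1.32 to 1.47) and 1.67 (1.55 to 1.79). In these 5 genes the m6A-IP level exceeded the input level at least 2-fold in both populations.

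At the low end, GATA2 (chr3:128479427-128493201) had 127, 90, 73 and 105 counts, an enrichment of -1.30 in shCTL (interval -1.72 to -0.91) and -0.73 in shA5 (-1.18 to -0.29). FOXN3, a forkhead repressor, had 106, 88, 53 and 63 counts, which gave -1.07 (-1.51 to -0.66) and -0.996 (-1.56 to -0.46). HOXB3 had 209, 179, 113 and 156 counts, or -1.03 (-1.34 to -0.75) and -0.79 (-1.16 to -0.44). HOXB3 is an anterior HOXB gene whose long transcripts overlap exons of HOXB4 and HOXB6 on the same strand and of antisense RNAs on the other, so its counts are uncertain. PBX4 encodes a partner of HOX proteins. It had 70, 70, 55 and 91 counts, or -0.80 (-1.32 to -0.32) and -0.53 (-1.04 to -0.03). All 4 had intervals below 0 in both populations.

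All 39 HOX genes had a row, and 27 passed the filter. The clusters expressed in these cells were led by middle and posterior genes. The highest input levels per length among the members, as RPKM (counts per kilobase, scaled like CPM) from the deposited transcript lengths, were those of HOXA5 (269 in shCTL and 252 in shA5), FOXC1 (267 and 207), HOXA6 (255 and 262), HOXD9 (222 and 174) and HOXD10 (206 and 209). HOXD11 came next, with 195 and 144 RPKM. HOXA5 had 1005, 2887, 551 and 2272 counts, HOXA6 564, 1476, 340 and 1133, HOXD9 930, 1949, 428 and 1685, and HOXD10 919, 2405, 545 and 1666. On the same scale HOXB9 had 142 RPKM in the shCTL input, HOXD13 88.0 and HOXD4 60.2, whereas the neighbouring HOXD12 had 0.175 and HOXD8 1.19.

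Levels thus differed widely between neighbours in a cluster. In the HOXB cluster all genes from HOXB2 to HOXB9 and HOXB13 passed the filter, while HOXB1 had 1, 0, 0 and 0 counts, under the floor of 3 counts in every library. HOXA3 and HOXA4, HOXC6, HOXC9, HOXC11 and HOXC12, and HOXD1, HOXD3, HOXD8 and HOXD12 were also under the filter. The highest count in any of those 10 was 61, for HOXC6 in the shCTL m6A-IP.

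**Figure D2:**
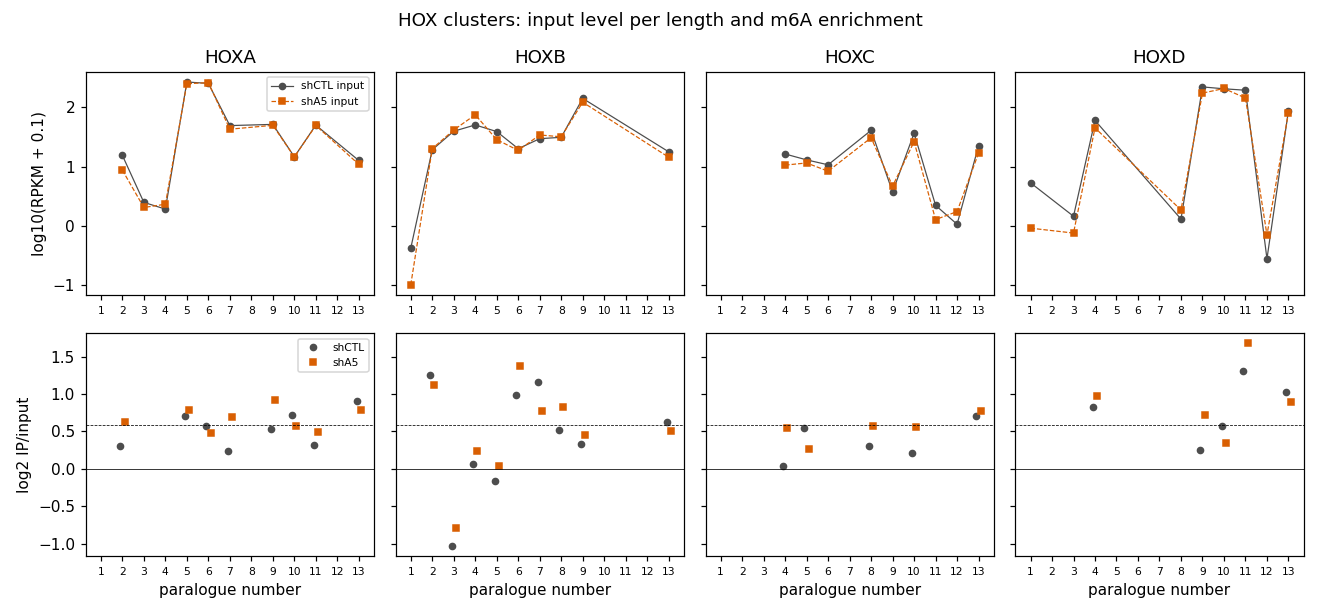
The 4 HOX clusters by paralogue number, in shCTL (grey) and shA5 (orange). The upper row shows log10 of the input RPKM plus 0.1 of listed genes, with lines joining neighbours, and the lower row the log2 ratio of m6A-IP to input of the genes that passed the filter, where the dashed line marks 1.5-fold. Input levels of both populations run close together for most genes, with HOXA5, HOXA6, HOXD9, HOXD10 and HOXD11 at the top, and HOXB3 lies lowest in the lower row, at -1.03 in shCTL.

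HOX mRNAs as a whole were enriched, at a lower level than the sum of all members. Summed over all 39, enrichment was 0.59 in shCTL (interval 0.55 to 0.62) and 0.70 in shA5 (0.65 to 0.75), and 11 of the 27 passed 1.5-fold in shCTL and 14 in shA5. By cluster the sums in shCTL were 0.58 for HOXA, 0.34 for HOXB, 0.27 for HOXC and 0.78 for HOXD, and the intervals of HOXB (0.27 to 0.42) and HOXC (0.14 to 0.40) overlapped each other while that of HOXD (0.72 to 0.84) stood above the other 3. HOXD11 was the most enriched HOX gene, with 745, 3249, 322 and 2474 counts and an enrichment of 1.31 (1.19 to 1.42) in shCTL and 1.68 (1.51 to 1.85) in shA5. The listed transcripts of HOXD10 overlap HOXD11 on the same strand, and 25.8% of the 25-base stretches of HOXD11 also occur in HOXD10, so reads of the pair could have been split between them.

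Among the other HOXA genes, enrichment in shCTL was 0.91 for HOXA13, 0.71 for HOXA10, 0.70 for HOXA5, 0.57 for HOXA6, 0.54 for HOXA9, 0.31 for HOXA11, 0.31 for HOXA2 and 0.24 for HOXA7. HOXB2 (1.26), HOXB7 (1.16), HOXB6 (0.99) and HOXB13 (0.62) passed 1.5-fold, and HOXB8 (0.52), HOXB9 (0.33), HOXB4 (0.07) and HOXB5 (-0.16) did not. Of the HOXC genes only HOXC13 passed, with 0.70, while HOXC5 had 0.55, HOXC8 0.30, HOXC10 0.21 and HOXC4 0.03. HOXC4 and HOXC5 share a region in which transcripts of several genes overlap, and 66.9% of the 25-base stretches of HOXC5 occur in an unnamed overlapping gene. Beside HOXD11, enrichment was 1.03 for HOXD13, 0.82 for HOXD4, 0.57 for HOXD10 and 0.25 for HOXD9.

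The SOX family had the highest summed enrichment among those with more than 4 members past the filter. Over 15 listed genes it was 1.21 in shCTL (interval 1.17 to 1.26) and 1.43 in shA5 (1.36 to 1.51), and 6 of the 8 that passed the filter were enriched 1.5-fold in shCTL. Most counts of this sum came from SOX4 and SOX12. The median over members past the filter in shCTL was 0.89 for SOX, below the 0.94 for FOX. SOX12, like SOX4 a single-exon SOXC gene, had 1804, 7281, 702 and 4507 counts and an enrichment of 1.19 (1.12 to 1.27) and 1.42 (1.30 to 1.54). SOX2, a factor of neural and pluripotent stem cells, had 146, 565, 49 and 307 counts and an enrichment of 1.13 (0.87 to 1.41) and 1.37 (0.95 to 1.85). SOX18 (0.95), SOX21 (0.84) and SOX8 (0.80) also passed in shCTL. SOX13 (0.47) and SOX9 (0.20), a factor of cartilage and gonad, did not.

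The FOX family supplied 44 listed genes and 19 past the filter, of which 15 were enriched 1.5-fold in shCTL. Its summed enrichment was 0.99 in shCTL (interval 0.95 to 1.02) and 1.10 in shA5 (1.05 to 1.14). Beside FOXD3 and FOXC1, high values were those of FOXO3 (1.28), FOXA1 (1.27), FOXD2 (1.13), FOXC2 (1.12), FOXD1 (1.12) and FOXB1 (1.04). FOXO3B (0.94), FOXF2 (0.85), FOXD4 (0.76), FOXO4 (0.71), FOXF1 (0.69) and FOXO1 (0.66) followed. FOXO3, FOXA1 and FOXB1 had 23, 24 and 25 counts in the shCTL input, beside 101, 105 and 93 in its m6A-IP. Each passed the filter only through its m6A-IP counts. FOXK2 (0.47) and FOXK1 (0.42), which are broadly expressed and have 9 exons each, stayed under 1.5-fold, and FOXJ2 was at -0.09. Values of FOXO3 and FOXO3B are uncertain one by one, because 64.0% of the 25-base stretches of FOXO3B occur in FOXO3. As a sum, the pair had an enrichment of 0.997 (0.76 to 1.24) in shCTL and 1.58 (1.25 to 1.93) in shA5. The 6 listed FOXD4 copies share 27.8 to 87.8% of such stretches with each other, and their sum gave 1.09 (0.65 to 1.54) and 0.82 (0.35 to 1.32).

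All 4 POU genes past the filter were enriched in both populations, and the summed enrichment of the family was 1.28 in shCTL (interval 1.19 to 1.37) and 1.54 in shA5 (1.41 to 1.66). POU4F1, a factor of sensory neurons, had 908, 3924, 443 and 3183 counts and an enrichment of 1.29 and 1.58. POU3F1 had 1.12 and 1.98, and POU3F3 had 0.86 and 1.41. The pluripotency gene POU5F1 had no row.

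Among the remaining homeobox families, enrichment in shCTL was 0.89 for SIX5, 0.57 for SIX4 and 0.16 for SIX2, which act with EYA proteins in kidney, muscle and sense organs. The LIM genes LHX2 (0.48), LHX1 (0.42) and LHX4 (0.20) stayed below 1.5-fold. IRX6 had 0.37. Both MSX genes passed, MSX1 with 0.85 and MSX2 with 0.66, as did DLX3 (0.66) and DLX2 (0.59), while DLX1 (0.41) and DLX6 (0.39) did not. PAX6, an eye and brain factor and the only PAX gene past the filter, had 0.17. Among T-box genes TBX2 had 0.87, TBX18 0.49, TBX3 0.17 and TBX20 -0.37. Among GATA genes GATA6 had 0.94, GATA5 0.79 and GATA4 0.07. PBX2, with 1145, 2340, 597 and 1669 counts the most abundant PBX gene, had 0.21 in shCTL and 0.22 in shA5. It shares 27.7% of its 25-base stretches with the pseudogene PBX2P1.

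The members differ from other genes in structure. The transcript with the most counts had a median of 2 exons, against 9 over the 5292 genes with an annotated transcript. It had a single exon in 14 of the 85 members (16.5%, beside 4.27% of all genes) and 2 exons in 36 (42.4%, beside 6.88%). All 14 single-exon members were enriched at least 1.5-fold in shCTL, with a median of 1.13, as were 72.6% of the 212 other single-exon genes. Median enrichment was 0.60 for the 36 with 2 exons, 0.66 for the 16 with 3 to 5, 0.21 for the 16 with 6 to 10 and 0.17 for the 3 with more, which were PAX6, SOX13 and FOXJ2. Across the 85 genes, Spearman's rho between exon number and enrichment in shCTL was -0.52 (n = 85), and it was -0.26 over all 5292. This is a description across genes of the same libraries, and genes are not independent replicates.

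Within a class of exon number, members and other genes stood closer. In shCTL the other genes had a median of 1.01 with 1 exon (n = 212) and 0.67 with 2 exons (n = 328), near the values of the members. With 3 to 5 exons the other genes had 0.05 (n = 1061), and with 6 to 10 exons -0.26 (n = 1460), and both were below the members. In shA5 the medians with 1 exon were further apart, 1.44 in the members and 1.06 in other genes, and with 2 exons they were 0.69 and 0.64. GGACT was present in the leading transcript of 81 members (95.3%) and of 93.3% of all genes, at a median of 1.19 and 0.960 copies per kilobase. Median GC content was 55.6% in the members and 51.4% in all genes, and Spearman's rho of GC content with enrichment in shCTL was 0.25 over the members and 0.36 over all genes. With the GC trend over all genes removed, the members' median enrichment was 0.44 in shCTL and 0.60 in shA5. How far structure and base composition account for the members' enrichment was not tested.

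**Figure D3:**
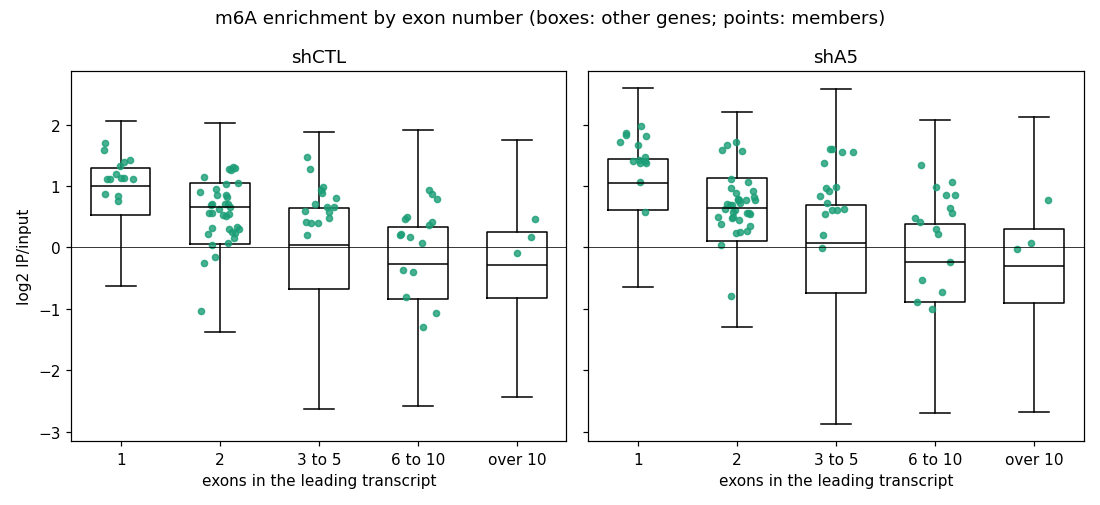
Log2 ratio of m6A-IP to input by the number of exons in the leading transcript, in shCTL (left) and shA5 (right). Points are the 85 members, and boxes give the median and quartiles of the other genes, with whiskers to the last value within 1.5 box lengths. In shCTL all 14 single-exon members lie above 0.58, and the boxes fall from a median of 1.01 with 1 exon to -0.26 with 6 to 10.

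The change of enrichment is the shA5 value minus the shCTL value. Its median over the members was 0.21, and it was above 0 in 65 of 85, where the median over all genes was 0.0036 and 50.5% of all genes were above 0. By 1.5-fold, enrichment was higher in shA5 in 8 members (9.41%), where 5.38% of all genes were, and lower in 0, where 5.09% were. Without the filter on counts the share with higher enrichment did not exceed the background, with 22.2% of the 162 members beside 22.7% of all genes. Counting intervals of the change lay above 0 for 13 members and below 0 for HOXD10 alone, with a change of -0.22 (interval -0.40 to -0.04). Over all genes 8.18% of the intervals lay above 0 and 8.06% below. Summed over the 162 genes the change was 0.12 (0.09 to 0.15). Since enrichment is a ratio to the input, a lower input alone raises it.

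The 8 members past 1.5-fold came from 6 families. SOX21, a SOXB factor of neural progenitors (chr13:94709622-94712545), had 41, 131, 7 and 64 counts, and enrichment of 0.84 in shCTL and 1.84 in shA5, a change of 0.99 (interval of the plain ratio -0.21 to 2.55). It rests on 7 counts in the shA5 input. POU3F1, a POU factor of neural and Schwann cells (chr1:38043829-38046793), had 88, 340, 26 and 251 counts and an enrichment of 1.12 and 1.98, a change of 0.86 (0.18 to 1.61). FOXC2, a paralogue of FOXC1 known from lymphatic vessels (chr16:86566829-86569728), had 52, 202, 19 and 170 counts and an enrichment of 1.12 and 1.86, a change of 0.74 (-0.09 to 1.65). SIX5 (chr19:45764785-45769252) had 113, 371, 29 and 214 counts and an enrichment of 0.89 and 1.60, a change of 0.71 (0.07 to 1.41). The exons of SIX5 overlap those of DM1-AS on the opposite strand, and strand use in the counting is not given in the sources used here.

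The m6A-IP level was not lower in shA5 for 5 of the 8, with log2 changes of 0.49 for TBX20, 0.41 for FOXB1, 0.17 for FOXO3B, 0.08 for FOXC2 and 0.01 for IRX6. For POU3F1, SIX5 and SOX21 it changed by -0.11, -0.47 and -0.69. TBX20, a T-box factor of the heart (chr7:35202430-35254100), had 68, 92, 35 and 104 counts and an enrichment of -0.37 and 0.30, a change of 0.68 (-0.06 to 1.45). FOXB1 (chr15:60004234-60061730) had 25, 93, 12 and 99 counts and an enrichment of 1.04 and 1.73, a change of 0.68 (-0.44 to 1.91). FOXO3B (chr17:18667629-18682314) had 168, 571, 72 and 512 counts and an enrichment of 0.94 and 1.56, a change of 0.62 (0.17 to 1.07). It shares stretches with FOXO3, and the sum of FOXO3 and FOXO3B changed by 0.58 (0.17 to 1.004). IRX6 (chr16:55324203-55330756) had 104, 238, 40 and 191 counts and a change of 0.61, with an interval that ended just under 0. Of the 8 intervals, those of POU3F1, SIX5 and FOXO3B lay above 0. TBX20 also shares 22.7% of its 25-base stretches with a gene at another locus.

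Changes under 1.5-fold with intervals above 0 were seen in members of high and of middle counts. FOXC1 changed by 0.23 (interval 0.12 to 0.35), SOX4 by 0.28 (0.14 to 0.42), SOX12 by 0.22 (0.09 to 0.36) and HOXD11 by 0.37 (0.17 to 0.58). HOXD9 changed by 0.46 (0.27 to 0.66), and FOXK1 by 0.14 (0.01 to 0.27). POU4F1 changed by 0.29 (0.11 to 0.47). The input of FOXC1, SOX4, SOX12, HOXD11, HOXD9 and POU4F1 was lower in shA5, with log2 input changes of -0.37, -0.66, -0.59, -0.44, -0.35 and -0.26, each with an interval below 0, while that of FOXK1 was higher by 0.13. HOXA9 had 235, 602, 125 and 570 counts, a change of enrichment of 0.38 (0.02 to 0.75) and an input change of -0.14 (-0.46 to 0.18). HOXA7 had 222, 461, 113 and 438 counts, a change of enrichment of 0.45 (0.07 to 0.85) and an input change of -0.20 (-0.54 to 0.13). Other abundant members had intervals of the change of enrichment that held 0, with -0.06 for FOXK2 (-0.21 to 0.10), 0.08 for HOXA5 (-0.10 to 0.25), 0.0063 for PBX2 (-0.16 to 0.18) and 0.12 for HOXB9 (-0.08 to 0.32). By family sums, the change was 0.22 for SOX (0.13 to 0.30), 0.26 for POU (0.11 to 0.41), 0.29 for sine oculis homeobox (0.10 to 0.47), 0.11 for FOX (0.05 to 0.16) and 0.11 for HOX (0.05 to 0.17). It was -0.09 for MSX (-0.37 to 0.19), -0.02 for PBX (-0.18 to 0.15) and -0.0025 for LHX (-0.41 to 0.41), all with intervals that held 0.

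**Figure D4:**
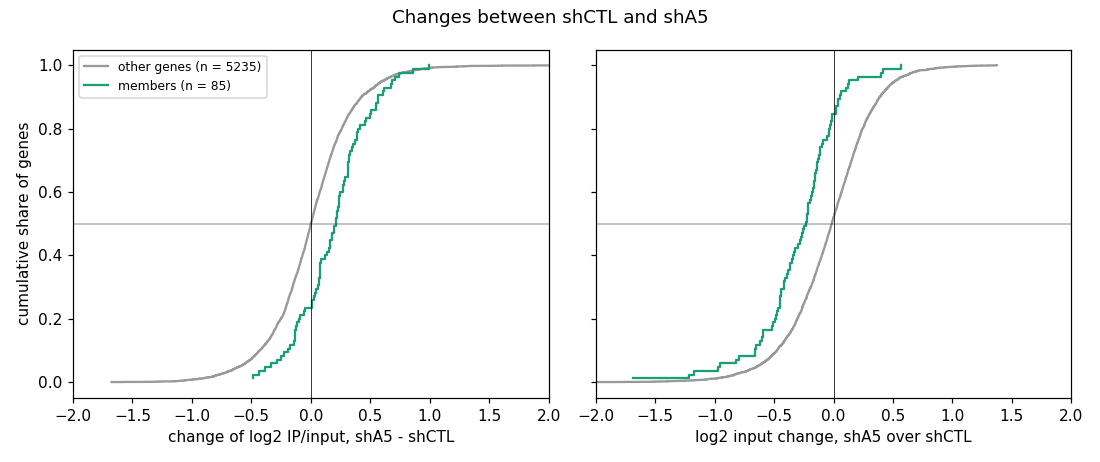
Cumulative share of genes by change of log2 m6A enrichment (left) and by log2 change of input RNA (right) between shA5 and shCTL, for the 85 members (green) and the 5235 other genes (grey). At a share of 0.5 the members' curve lies at 0.21 on the left and at -0.23 on the right, and the other genes' curve close to 0 in both.

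Input RNA, the level of the fragmented poly(A) RNA before the pull-down, was lower in shA5 for most of these genes. The median log2 change over the members was -0.23, and 72 of 85 were below 0, where the median over all genes was -0.02 and 52.5% of all genes were below 0. By 1.5-fold, 14 members were lower in shA5 (16.5%), where 6.43% of all genes were, and 0 were higher, where 3.44% were. Counting intervals lay below 0 for 29 members (34.1%, beside 15.6% of all genes) and above 0 for HOXB4 and FOXK1 (2.35%, beside 12.9%). Summed over all 162 genes, input CPM went from 12588 in shCTL to 10673 in shA5, a change of -0.24 (interval -0.27 to -0.21). Fewer cells of a type and less RNA per cell cannot be told apart in bulk samples.

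The SOX family had the lowest summed input relative to shCTL of the large families, with a change of -0.59 (interval -0.67 to -0.51), and 7 of its 8 members past the filter were below 0. Most counts of the sum came from SOX4 and SOX12, and the median change over the 8 was -0.55. SOX4 changed by -0.66 (-0.79 to -0.53), SOX12 by -0.59 (-0.72 to -0.46), SOX2 by -0.80 (-1.30 to -0.33) and SOX21 by -1.69 (interval of the plain ratio -3.18 to -0.61). All 4 are single-exon genes, and all 4 passed 1.5-fold. In the m6A-IP the changes of SOX4 and SOX12 were -0.38 and -0.37, smaller than in the input. SOX9 (-0.51), SOX8 (-0.49), SOX13 (-0.04) and SOX18 (0.11) stayed within 1.5-fold.

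The summed input of the POU family changed by -0.32 (interval -0.46 to -0.17), and that of its 3 POU3F genes, a subset known from neural cells, by -0.62 (-0.93 to -0.32). POU3F3 had 45, 146, 11 and 73 counts and a change of -1.21 (-2.36 to -0.29), POU3F1 a change of -0.97 (-1.68 to -0.34) and POU3F2 one of -0.38 (-0.76 to -0.02). POU4F1 changed by -0.26 with an interval below 0. All 4 POU genes past the filter had intervals below 0.

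The homeobox genes past 1.5-fold came from 5 more families. SIX5 changed by -1.17 (interval -1.83 to -0.59). LHX1, a LIM factor needed for kidney formation (chr17:36936785-36944612), had 117, 277, 35 and 166 counts and a change of -0.96 (-1.56 to -0.41). HOXA2 (chr7:27100354-27102686) had 58, 127, 19 and 71 counts and a change of -0.82 (-1.67 to -0.07), and HOXC4 (chr12:54016931-54056030) had 61, 110, 23 and 81 counts and a change of -0.62 (-1.40 to 0.08). IRX6 changed by -0.60 (-1.17 to -0.07). DLX3 (chr17:49990005-49995224), a factor of skin and placenta, had 34, 96, 13 and 57 counts and a change of -0.59 (-1.66 to 0.34). The intervals of HOXC4 and DLX3 held 0.

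The last pair past 1.5-fold were FOXC2, with -0.66 (interval -1.52 to 0.10), and GATA4, a factor of heart and gonad, with 49, 91, 18 and 68 counts and -0.65 (-1.54 to 0.13). Both intervals held 0. By sums, the change was -0.35 for TBX (-0.53 to -0.17), -0.37 for sine oculis homeobox (-0.53 to -0.21), -0.57 for LHX (-0.92 to -0.22), -0.61 for IRX (-0.91 to -0.31) and -0.30 for DLX (-0.55 to -0.06). It was -0.13 for FOX (-0.18 to -0.08) and -0.26 for GATA (-0.51 to -0.01). For PBX (-0.12), MSX (-0.14) and PAX (-0.07) the interval held 0.

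The summed input of the HOX genes changed by -0.16 (interval -0.21 to -0.10), and 21 of the 27 were below 0. Within the family, HOXC (-0.40, interval -0.59 to -0.20) and HOXD (-0.23, -0.31 to -0.14) were below 0, while the intervals of HOXA (-0.18 to 0.01) and HOXB (-0.17 to 0.04) held it. Of the genes highest in level per length, HOXD9 changed by -0.35 (-0.52 to -0.18), while HOXA5 (-0.10), HOXA6 (0.04) and HOXD10 (0.02) had intervals that held 0. HOXB4, with 226, 418, 197 and 556 counts, had the highest change among the members, 0.57 (0.29 to 0.85), and its exons overlap those of HOXB3. FOXK1 had 1672, 3938, 1071 and 3783 counts and a change of 0.13 (0.02 to 0.24).

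**Figure D5:**
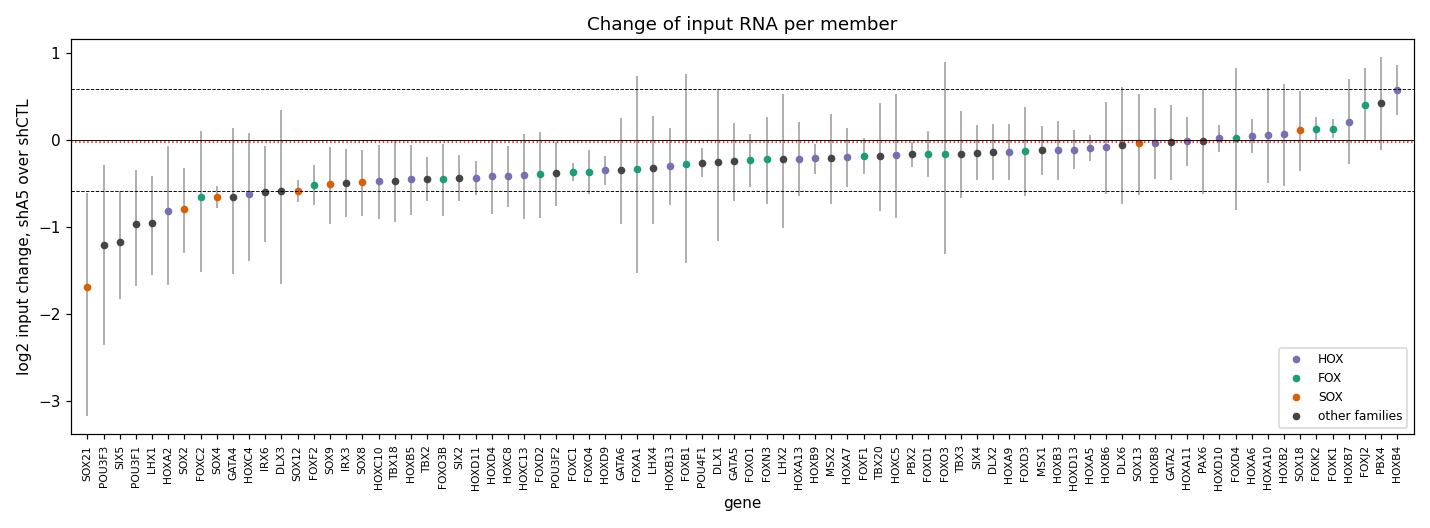
Log2 change of input CPM between shA5 and shCTL for 82 of the 85 members, in order of value and coloured by family group. Points carry the pseudocount, bars are 95% counting intervals of the plain ratios with 1 library per group, dashed lines mark 1.5-fold and the dotted line the median of all genes, -0.02. From SOX21 at -1.69 to HOXB4 at 0.57, 70 of these genes lie below 0, and the highest SOX gene is SOX18 at 0.11.

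Spearman's rho between exon number and input change was 0.21 over the members, smaller in size than that with enrichment. The median change was -0.49 for the 14 single-exon members, against -0.03 for other single-exon genes, and -0.21 for members with 2 exons, against -0.05. With 3 to 5 and with 6 to 10 exons it was -0.31 and -0.21 in the members, and -0.0007 and -0.0048 in other genes. With more than 10 exons it was -0.0095 in the 3 members, above the -0.02 of other genes. In all 4 classes of GC content the members had the lower median too, from -0.21 to -0.30, where other genes had -0.21 in the class over 65% GC and values between -0.03 and 0.03 in the other 3. Lower input and higher enrichment at 1.5-fold met in 5 members, SOX21, POU3F1, SIX5, FOXC2 and IRX6, while 9 had only the lower input and 3 only the higher enrichment. The 5 were 62.5% of the members with higher enrichment and 35.7% of those with lower input, and over all genes the shares were 47.9% and 40.1%. Both measures contain the shA5 input, the shallowest library, where 1 count equals more CPM than in the others, so they are not independent.

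In the m6A-IP itself the members were also lower in shA5, by less. The median log2 change of m6A-IP CPM was -0.11, with 58 of 85 below 0, against -0.02 and 2785 of 5320 over all genes. Summed CPM of the 162 genes in the m6A-IP went from 22564 to 20818.

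Other genes that act with or beside these families were set beside them. Of 23 cofactors (EYA, DACH, TLE, LDB, LMO, TALE and ZFPM genes), 7 passed the filter, with a median enrichment of 0.11 in shCTL. Of the 7, 2 were enriched 1.5-fold in shCTL, beside 22.5% of all genes. They were TLE5 (0.70) and the GATA partner ZFPM1 (1.05), while TLE1 was at -0.05 and LDB1 at 0.11. The median input change of the 7 cofactors was -0.20, with 6 of 7 below 0, beside 52.5% of all genes. By 1.5-fold 0 were lower and 0 higher, beside 6.43% and 3.44% of all genes. LDB1, the partner of LIM factors, had an input change of 0.31 (interval 0.10 to 0.52).

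Of 69 developmental transcription factors of other families, 30 passed the filter, with median enrichments of 0.42 in shCTL and 0.49 in shA5. Of the 30, 14 were enriched 1.5-fold in shCTL and 13 in shA5, beside 22.5% and 24.3% of all genes. The most abundant were ZIC2 (0.68 in shCTL), EN2 (1.57), ID4 (0.17) and HES4 (-0.62). The median input change of the 30 was -0.12, with 20 of 30 below 0, beside 52.5% of all genes. By 1.5-fold 3 were lower and 0 higher, beside 6.43% and 3.44% of all genes. These medians lay between those of the members and those of all genes for both measures, and whether the lists differ was not tested.

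Markers of the line's origin were partly present. Of 18 genes of the embryonic kidney lineage, 14 had a row and 5 passed the filter, all of them members, among them HOXD11, SIX2, HOXA11 and LHX1. PAX2, a defining factor of the nephric lineage, had 0, 1, 0 and 0 counts, and PAX8 had no row. Of 12 neural genes, 9 had a row, and NES (431, 1295, 135 and 551 counts), POU3F2, NEFL and SOX2 passed. All 4 were enriched in both populations and the input difference was below 0 in all 4, with -0.90 for NES (interval -1.19 to -0.62), -0.80 for SOX2, -0.38 for POU3F2 and -0.34 for NEFL, whose interval (-0.73 to 0.05) held 0. Summed input CPM of the neural list was 433 in shCTL and 281 in shA5. Of the 12, 4 were at 0 in the input of shCTL and 5 in that of shA5, counting as 0 the genes without a row, DCX, MAP2 and STMN2.

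Markers of other cell types were at or near the floor with few exceptions. No haematopoietic gene passed the filter, and the summed CPM of that list was 0.318 to 11.4 in the 4 libraries. Of 8 pluripotency genes SOX2 and LIN28B passed, with NANOG and POU5F1 without a row. Of 7 endothelial and mesenchymal genes COL1A1 and TWIST1 passed, with input changes of -0.65 and -0.77, while PECAM1 had 0, 0, 0 and 2 counts. The part of these lists in the lower input of the members was not tested.

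The 77 members under the filter are described by their counts only. Their mean was 10 to 50 counts in 35 and lower in 42, and 17 had at most 3 counts in every library. Near the filter were IRX5 (41, 89, 11 and 45 counts), FOXN4 (60, 44, 27 and 53) and MEIS3 (38, 66, 23 and 56). No MEIS gene and no LMX1 gene passed. MEIS1 and MEIS2, the HOX partners, had 10 to 28 and 3 to 18 counts, and PBX3 0 to 8.

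Members with many annotated transcripts passed the filter in a smaller share than those with few. Of members with at most 1 annotated coding transcript, 48 of 76 passed the filter (63.2%), and of those with 5 or more, 6 of 28 (21.4%). Over all genes of the tables the shares were 49.8% and 27.9%. FOXP1 (4 to 24 counts), FOXM1 (20 to 35), POU2F1 (0 to 4) and MEIS2 are among the low ones. They have 36, 5, 6 and 14 annotated coding transcripts. How the authors counted reads shared between transcripts of a gene is not given in the sources used here, and its part in these low counts was not tested.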

How the data were processed

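For each of the 4 libraries the authors deposited a table of whole-number counts by Ensembl transcript, made with fastp, HISAT2 on hg38 and Samtools (StringTie is named for quantification and MACS2 for peaks). Per the labels' processing notes the versions were bcl2fastq 2.0, fastp 0.23.2 and SAMtools 1.9. Which program counted the reads, with what annotation and strand setting, is not given in the sources used here. Poly(A) RNA was selected with oligo(dT) beads, fragmented and pulled down with an m6A antibody.

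Counts were summed per gene name (28413 transcripts, of which 98.1% are in Gencode v44) and divided by the library total. Log2 ratios carry a pseudocount of 0.5 CPM, and genes averaging under 50 counts across libraries were left out. RPKM used the deposited transcript lengths. The leading transcript is the one with the most counts. GGACT was searched on the mRNA strand only, and overlaps may occur. Stretches of 25 bases shared between members and other genes were counted.

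With 1 library per group no test could be made. Intervals at 95% are exact, from the binomial distribution (Clopper-Pearson) for a ratio of counts and from the conditional odds ratio for a change of enrichment. A count of 0 allows up to 3 counts, 0.761 to 2.29 CPM by library. The members and lists were chosen with earlier results of these data known. Named are members past the filter, in full those at 1.5-fold or more for either change, the 5 highest and 5 lowest in shCTL enrichment and the 5 highest in input level. Genes of the 7 lists were taken in order of mean count. Some genes that the rule names are not reported here. Peaks were not analysed here.

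The steps were tested on simulated data. The 11 alternatives were edgeR 4.0.16 TMM factors, DESeq2 1.42.0 size factors, a pseudocount of 0.1 or 2 CPM, a filter at 10 counts or none, 2-fold, leaving out members whose exons overlap another gene, the leading transcript alone, libraries thinned to 1311390 counts, and a GC trend (lowess span 0.3) removed. Analyses used Python 3.11.15, numpy 2.4.6, pandas 2.3.3, scipy 1.17.1, statsmodels 0.14.6, matplotlib 3.10.9 and R 4.3.3.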

Additional observations from a re-analysis of the deposited data

Results flagged for a closer look

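In 4 members the enrichment had opposite signs in shCTL and shA5, with 1 library each, and the difference was not tested. The counting intervals of all 8 enrichment values held 0, as did those of the 4 changes, so the signs are not resolved at this depth. TBX20 went from -0.37 to 0.30, a change of 0.68 (interval -0.06 to 1.45), and HOXB5 from -0.16 to 0.04 (0.19, -0.29 to 0.69). LHX2 went the other way, from 0.48 to -0.01 (-0.49, -1.41 to 0.44), as did LHX4, from 0.20 to -0.24 (-0.44, -1.20 to 0.32). The exons of LHX4 overlap those of ACBD6 and the exons of HOXB5 those of HOXB-AS3, both on the opposite strand.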

How the results depend on the processing

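No paired analysis was possible because no group held more than 1 library. Of 128 summary values recomputed under the 11 alternatives, 94 stayed within 1.5 times the reported count or within the interval of the reported median, 34 moved and 0 reversed, and of 1785 values of single members 37 moved and 0 reversed. The members' input change stayed below 0 in 70 of 85 with TMM factors and in 69 with DESeq2 size factors, and under both 1 member, HOXB4, had input higher by 1.5-fold, where 0 had before. With the filter at 10 counts (120 members), 15 were depleted in shCTL and 9 in shA5 (12.5% and 7.5%, beside 35.8% and 37.8% of all genes). Enrichment was higher in 18 and lower in 5 (15% and 4.17%, beside 12.6% and 13%), and input was higher in 6 and lower in 24 (5% and 20%, beside 9.32% and 12.5%). Without a filter (162 members), 71 were enriched in shCTL (43.8%, beside 21.6%), and 28 and 20 were depleted in shCTL and shA5 (17.3% and 12.3%, beside 36.7% and 37.5%). Enrichment was then higher in 36 (22.2%, no longer above the 22.7% of all genes) and lower in 20 (12.3%, beside 21.4%), input was higher in 14 and lower in 38 (8.64% and 23.5%, beside 15.3% and 19.9%), and median enrichment was 0.46 and 0.59. At 2-fold, 20 and 26 members were enriched (23.5% and 30.6%, beside 10.1% and 12%), 0 were depleted in shA5 (beside 18.4%), enrichment was higher in 0 (beside 0.846%) and input lower in 3 (3.53%, beside 1.15%). Leaving out members whose exons overlap another gene left 43, fewer by construction, of which 24 and 31 were enriched (55.8% and 72.1%), 1 and 1 depleted (2.33%), 5 had higher enrichment (11.6%) and 8 lower input (18.6%), beside the all-gene shares of 22.5%, 24.3%, 30.3%, 31.7%, 5.38% and 6.43%. In thinned libraries 64 members passed the filter, 2 and 2 were depleted (3.12%, beside 29.2% and 30.7%), 4 had higher enrichment (6.25%, beside 4.54%) and 8 lower input (12.5%, beside 4.88%). Removing the GC trend gave median enrichments of 0.44 and 0.60, and the cause of that shift was not tested. The depth of the shA5 input limits every change, as for SOX21 with 7 counts there, and the lack of replicates leaves the spread between cultures unknown.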
